A study of Mus musculus with 6 samples.

Results

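The genes described here are 38 synaptic adhesion molecules, taken by name from the neurexin, neuroligin, cerebellin, C1q-like, LRRTM, Cadm, contactin, contactin-associated, NCAM, L1, cadherin, sidekick and Dscam families. All 38 were found among the 24421 genes counted, and the choice was by gene family, with no threshold on a measured value. The tissue was the cerebellum of mice aged 1 year, with the Purkinje neuron layer and the molecular layer both in the microdissected piece. Messenger RNA libraries, 3 from wild type mice (WT) and 3 from STIM1 knockout mice (KO), which the series text calls biological replicates, were sequenced as single reads. STIM1 is the calcium sensor of the endoplasmic reticulum. The labels give neither the deleted exons, nor the cells in which Stim1 is deleted, nor the strain. The comparison of genotypes asks which transcripts of this tissue differ between WT and KO mice.

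Synaptic adhesion molecules hold the presynaptic and postsynaptic membranes together across the cleft and help to set the kind and number of synapses. In the cerebellar molecular layer, granule cell axons release cerebellin, which binds presynaptic neurexins and joins them to the Purkinje cell spine, while C1q-like proteins bind adhesion G protein-coupled receptors. Proteins of the contactin, L1 and NCAM families act mainly along axons, at nodes of Ranvier, at the axon initial segment and in the growth and spacing of neurites. In bulk tissue such as this, fewer cells of a type and less RNA per cell cannot be told apart.

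The 6 libraries held 645994 to 764839 counts in genes, which were 1.16% to 1.23% of the uniquely aligned reads. Stim1 itself was at the edge of detection, with 7, 21 and 3 counts in the WT mice (replicates 1 to 3, in that order throughout) and 4, 3 and 2 in the KO mice, so it is a weak check of the labels. WT replicate 3 held 28 counts and KO replicate 3 held 14 counts of Y-linked genes, and the other libraries held 0. Purkinje markers were present, with all 11 of 11 counted and a summed level of 3560 to 4224 CPM (counts over the TMM-scaled gene-count total of the library, on a common scale) in WT mice against 2662 to 3559 CPM in KO, while the granule cell list summed to 378 to 445 CPM in WT and 411 to 480 CPM in KO (Cbln3 is on that list). Markers of astrocytes and Bergmann glia summed to 746 to 889 CPM in WT and 483 to 687 CPM in KO. Markers of oligodendrocyte precursors, endothelium and microglia summed to at most 42.0 CPM in any library. Molecular layer interneuron markers summed to 348 to 407 CPM in WT and 343 to 407 CPM in KO. Oligodendrocyte markers summed to 105 to 121 CPM in WT and 90.9 to 126 CPM in KO. The sums of Purkinje cells and of astrocytes and Bergmann glia thus did not overlap between genotypes, while those of granule cells, interneurons and oligodendrocytes did. The Purkinje sums parted narrowly, with the lowest WT library at 3560.4 CPM and the highest KO library at 3559.2 CPM. The part of these cells in the values below was not tested.

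Which strand the counts come from is not given in the sources used here, and this touches some adhesion genes directly. In GENCODE M21 on GRCm38, 12 of the 38 genes (31.6%) share at least 50 exon bases with a gene on the other strand, against 22.2% of the 23334 genes with a unique match. Among the genes tested below the order was reversed, at 33.3% of the adhesion genes against 45.9% of all tested genes with such a match. For 6 of the 12 adhesion genes with such an overlap, tested or not, a partner was counted too. Ncam1, the neural cell adhesion molecule, is the clearest case: the noncoding gene Gm11149 (chromosome 9, 49518288 to 49572591, plus strand) shares 417 bases with it in 4 stretches, all of them in Ncam1 coding sequence, and stretch 3 is a whole Ncam1 exon. Cadm2, a SynCAM protein, shares 256 bases with 1700010K23Rik in 3 stretches, 110 of them coding. The coding stretches of both are shown because a read wholly inside one can be given to the adhesion gene or to its partner only by strand. Stretch 2 of Ncam1, at 29 bases, is shorter than a read of 50 bases. All stretches are written in the sense of Ncam1 and Cadm2, from GENCODE M21 transcripts. The shared bases are in capitals and up to 20 neighbouring transcript bases in lower case.
Ncam1 stretch 1, chr9:49567350-49567480, minus strand: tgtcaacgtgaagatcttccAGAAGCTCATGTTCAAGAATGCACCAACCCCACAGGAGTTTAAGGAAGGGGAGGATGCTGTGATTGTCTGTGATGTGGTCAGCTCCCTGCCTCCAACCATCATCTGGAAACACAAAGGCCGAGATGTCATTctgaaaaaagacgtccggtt
Ncam1 stretch 2, chr9:49566784-49566812, minus strand: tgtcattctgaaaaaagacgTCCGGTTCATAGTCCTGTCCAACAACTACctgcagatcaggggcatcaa
Ncam1 stretch 3, chr9:49546158-49546308, minus strand: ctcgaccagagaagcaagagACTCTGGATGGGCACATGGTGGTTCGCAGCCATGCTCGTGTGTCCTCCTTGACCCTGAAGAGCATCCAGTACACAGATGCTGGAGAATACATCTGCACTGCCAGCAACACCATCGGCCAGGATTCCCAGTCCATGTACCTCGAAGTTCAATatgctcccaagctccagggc
Ncam1 stretch 4, chr9:49520110-49520215, minus strand: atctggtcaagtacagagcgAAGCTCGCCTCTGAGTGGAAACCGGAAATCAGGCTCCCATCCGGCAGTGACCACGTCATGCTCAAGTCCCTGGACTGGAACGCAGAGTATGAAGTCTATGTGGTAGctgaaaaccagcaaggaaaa
Cadm2 stretch 1, chr16:66664397-66664506, minus strand: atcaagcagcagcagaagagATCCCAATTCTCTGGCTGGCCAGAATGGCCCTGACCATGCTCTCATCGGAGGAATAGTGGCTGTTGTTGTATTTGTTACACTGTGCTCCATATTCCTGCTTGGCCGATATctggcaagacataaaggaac

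In these pairs the noncoding partner held far more reads than the adhesion gene. Ncam1 had 78, 79 and 70 counts in the WT mice (replicates 1 to 3, in that order throughout) and 81, 77 and 61 in the KO mice, while Gm11149 held 1598, 1825 and 1689 in the WT mice and 2136, 1802 and 1762 in the KO mice. Summed over libraries Gm11149 held 24.2 times the counts of Ncam1, and the ratio was 20.5 to 28.9 in single libraries. The shared bases are 13.0% of the exon bases of Gm11149, and where in that gene its reads lie was not tested. Cadm2 had 21, 13 and 19 counts in the WT mice and 29, 13 and 12 in the KO mice, against 558, 594 and 577 in the WT mice and 610, 598 and 557 in the KO mice for 1700010K23Rik. That partner thus held 32.7 times as many counts, although its exons span 376 bases and those of Cadm2 9809. Pcdh10, a protocadherin of synapses, stood closer to its partner, with 69.3 counts per library on average against 102.5 for 1700027H10Rik, which was the higher in 5 of 6 libraries. Nrxn2 went the other way. It had 79.5 counts per library on average and its partner Slc22a12, a urate transporter gene, 10.8, although they share 682 bases. Lrrtm2 and Cntnap1 and their partners all averaged under 7 counts. The partners' values did not differ between genotypes beyond their error either: the log2 fold change of KO over WT was 0.12 for Gm11149 (SE 0.12) and -0.00023 for 1700010K23Rik (SE 0.13), with an edgeR adjusted p of 0.987 and 1.000. How much of each gene's count belongs to the other strand was not tested, and the values below hold for the counts deposited under each name.

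**Figure D1:**
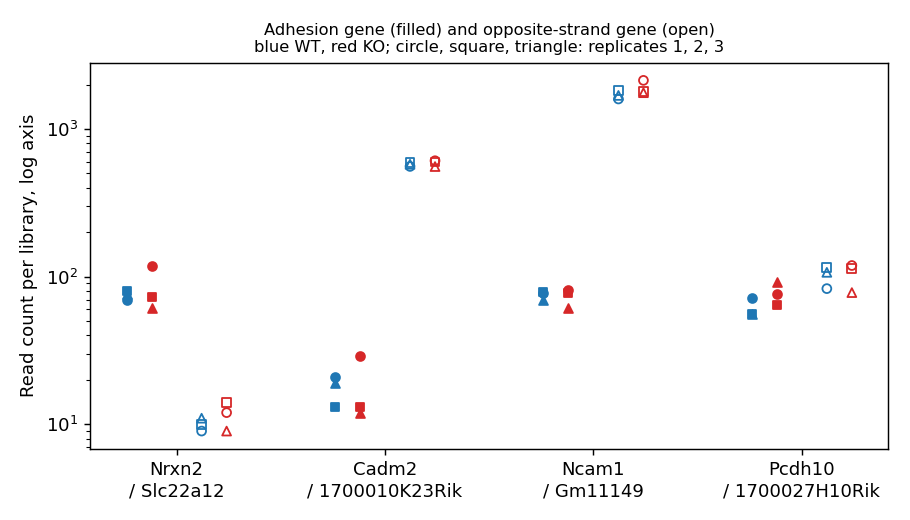
Read counts per library (log axis) of the 4 tested adhesion genes that have a counted gene on the other strand (filled symbols) and of that gene (open symbols), blue for WT and red for KO. Gm11149 and 1700010K23Rik lie more than 20 times above Ncam1 and Cadm2 in every library, 1700027H10Rik lies near Pcdh10, and Slc22a12 lies below Nrxn2.

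No synaptic adhesion gene differed past the threshold between the genotypes. Among the 18 of the 38 genes with enough counts to be tested with edgeR, 0 had a Benjamini-Hochberg adjusted p under 0.05, where 0% of all 5320 tested genes did, and DESeq2 and limma-voom also called 0. At an unadjusted p under 0.05 there was 1 gene, Nrcam, lower in KO, where 4.62% of all tested genes reached that level (3.05% lower and 1.58% higher). Limma-voom gave the same gene, where 234 of all 5320 genes reached that level. DESeq2 gave 0 of the 18, where only 108 of 16540 genes did. The fitted value was below 0 for 12 genes and above 0 for 6, against 49.8% below 0 among all tested genes, and the median log2 fold change was -0.046, against 0.0017 for all. With library sizes from all uniquely aligned reads 15 of the 18 were below 0 (83.3%, against 59.3% of all 5375 genes tested so). With DESeq2 10 of the 18 were (55.6%, against 45.1% of 16540 genes). Those 16540 are all genes with a count, since DESeq2 was run without the count filter. The median was -0.22 without KO replicate 1.

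The precision differed by gene and sets what the comparison can show. The standard error of the log2 fold change ran from 0.18 for Ncam1 to 0.44 for Cntn2. For 12 of the 18 genes (66.7%) the 95% interval lay within a 2-fold change in either direction, which held for 72.9% of all tested genes. The other 6 were Nrcam, Nrxn3, Nlgn1, Chl1, Cntn2 and Nfasc, whose intervals reach past a 2-fold lower level. The tested adhesion genes had a median of 21.7 counts per library, against 27 for all tested genes. The median chi-square per degree of freedom of their counts within a genotype was 1.59. It was above what counting noise alone gives and close to the 1.52 of all tested genes.

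**Figure D2:**
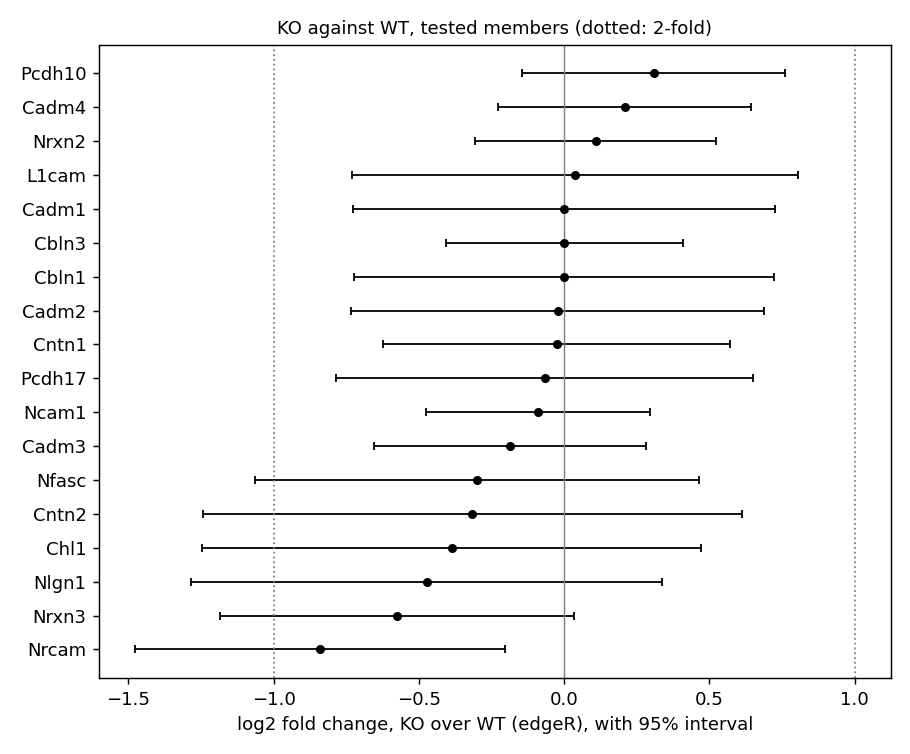
Log2 fold change of KO over WT (x axis) with its 95% interval for the 18 tested adhesion genes, with dotted lines at a 2-fold change. Nrcam lies lowest at -0.84 and Pcdh10 highest at 0.31, and all intervals but that of Nrcam include 0.

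Nrcam had the lowest p of the adhesion genes. It encodes an L1-family molecule of axons that is held at nodes of Ranvier and also shapes dendritic spines, and lies on chromosome 12 (44328885 to 44601964, plus strand) with no exon shared with an opposite gene. It had 31, 32 and 21 counts in the WT mice and 16, 20 and 12 in the KO mice. WT replicates 1 and 2 were the highest libraries, and WT replicate 3 (29.6 CPM) lay just under KO replicate 2 (29.8 CPM), so the groups overlapped by those 2 libraries. The mean was 41.5 ± 10.4 CPM in the WT mice against 23.0 ± 5.89 CPM in the KO mice (mean ± SD, n = 3 each). The log2 fold change was -0.84 (SE 0.30, 95% interval -1.48 to -0.20), with an edgeR adjusted p of 0.987. The unadjusted p was 0.0125 and ranged from 0.0039 to 0.054 when each library was left out. DESeq2 gave an unadjusted p of 0.060.

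The other L1-family genes had values below or near 0. Nfasc, which encodes neurofascin of the axon initial segment and the node, had 20, 20 and 9 counts in the WT mice and 17, 13 and 11 in the KO mice. WT replicate 3 was its lowest library and WT replicates 1 and 2 its highest, so the WT libraries spanned those of KO, and the log2 fold change was -0.30 (SE 0.36). Chl1, the close homolog of L1, had 14, 11 and 13 counts in the WT mice and 16, 10 and 4 in the KO mice. KO replicate 3 stood apart as the lowest, and the log2 fold change of -0.39 (SE 0.41) was -0.073 without that library. L1cam, the founding member, had 12, 12 and 10 counts in the WT mice and 16, 12 and 8 in the KO mice, overlapping groups with a log2 fold change of 0.038 (SE 0.36).

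Ncam1 (chromosome 9, 49502136 to 49798925, minus strand), a homophilic adhesion molecule of neurons and glia, was among the best measured of the set. It averaged 112 ± 11.4 CPM in the WT mice against 105 ± 9.21 CPM in the KO mice (mean ± SD, n = 3 each). The log2 fold change was -0.090 with a 95% interval of -0.48 to 0.29. Its relative Ncam2 was under the filter, with 8, 6 and 4 counts in the WT mice and 4, 2 and 0 in the KO mice. The KO libraries all lay under the lowest WT library in CPM. The permutation test, exact and two-sided, had p = 0.1, the smallest that 3 against 3 allows, and 0.8 after adjustment over the 16 untested genes that had a count. An edgeR fit without the low-count filter gave Ncam2 an unadjusted p under 0.05, as it did Nrcam, and neither passed the adjustment. They were 2 of the 34 adhesion genes with a count, where 3.86% of all 16540 genes with a count reached that level.

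Neurexins, the presynaptic organizers to which cerebellins, neuroligins and LRRTM proteins bind, were both tested. Nrxn2 (chromosome 19, 6418731 to 6544169, plus strand) had 69, 80 and 76 counts in the WT mice and 118, 73 and 61 in the KO mice. KO replicate 1 was the highest library and KO replicate 3 the lowest, so the KO libraries spanned those of WT. The log2 fold change was 0.11 (SE 0.20), and it was -0.11 without KO replicate 1. Nrxn3 had 26, 19 and 31 counts in the WT mice and 19, 14 and 19 in the KO mice. WT replicate 2 lay at 28.7 CPM and KO replicate 3 at 30.1 CPM, the pair by which the groups overlapped, and the log2 fold change was -0.58 (SE 0.29, 95% interval -1.18 to 0.033). Its unadjusted p was 0.062 with all libraries, and leaving out each library it ran from 0.031 to 0.20 with adjusted p of 0.947 or more.

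Among the neuroligins and LRRTM proteins of the set, which are postsynaptic partners of neurexins, Nlgn1 alone was tested. Nlgn1, a neuroligin of excitatory synapses, had 9, 15 and 28 counts in the WT mice and 12, 12 and 14 in the KO mice. WT replicate 3 held the highest level and WT replicate 1 the lowest, and the log2 fold change of -0.47 (SE 0.39) was 0.0086 without WT replicate 3. Nlgn3, a neuroligin of excitatory and inhibitory synapses, had 1 to 3 counts per library. The 4 leucine-rich repeat proteins of the LRRTM family, which compete with neuroligins for neurexin, were all under the filter. Lrrtm2 had 2, 5 and 8 counts in the WT mice and 1, 2 and 6 in the KO mice, Lrrtm3 had 0 to 7 counts per library, Lrrtm1 0 to 5 and Lrrtm4 0 to 2.

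Cerebellins split into a counted pair and a pair at 0. Cbln3 (chromosome 14, 55878913 to 55884392, minus strand), which is made by granule cells and needs Cbln1 for its secretion, had 60, 77 and 81 counts in the WT mice and 95, 75 and 55 in the KO mice. Both genotypes covered the same range, from 89.9 to 116 CPM in WT and 87.1 to 121 CPM in KO. The means were 107 ± 14.7 and 106 ± 17.4 CPM (SD, n = 3 each), and the log2 fold change was 0.00076 with a 95% interval of -0.41 to 0.41. Cbln1 (chromosome 8, 87468405 to 87472609, minus strand), the bridge between parallel fibres and Purkinje cells, had 25, 24 and 39 counts in the WT mice and 49, 15 and 27 in the KO mice. KO replicate 1 was its highest library and KO replicate 2 its lowest, so its SD in KO (19.9 CPM around 42.4) was wider than in WT (10.4 CPM around 42.9). Its log2 fold change was -0.00040 with an interval of -0.72 to 0.72, and it moved between -0.41 and 0.29 when each library was left out. Cbln2 and Cbln4 had 0 counts in every library, which allows up to 3 counts, or 3.81 to 4.75 CPM, in each and covers counting error only.

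C1q-like genes were under the filter. C1ql3, a secreted organizer that binds the receptor Adgrb3, had 11, 6 and 7 counts in the WT mice and 17, 6 and 4 in the KO mice, with KO replicate 1 highest and KO replicate 3 lowest (exact two-sided permutation p = 1.0). C1ql2 had 1, 1 and 2 counts in the WT mice and 2, 4 and 3 in the KO mice (exact two-sided permutation p = 0.2, and 0.8 adjusted over the 16 genes). Their groups overlapped. C1ql1 had 0 counts in every library, and the limit given for Cbln2 and Cbln4 holds for it too. Climbing fibres, with cell bodies outside the cerebellum, supply its protein to Purkinje cells. Whether this bears on the 0 counts was not tested.

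All 4 Cadm genes, the SynCAM proteins that pair across the synaptic cleft, were tested. Cadm4 (chromosome 7, 24482023 to 24504539, plus strand) had 44, 41 and 47 counts in the WT mice and 63, 52 and 42 in the KO mice. It was the 1 tested adhesion gene whose groups did not overlap in CPM, with the highest WT library at 66.2 and the lowest KO library at 66.5, higher in KO, while 10.7% of all tested genes showed no overlap (4.61% higher and 6.13% lower in KO). That separation rests on the TMM scaling. KO replicate 3 held fewer Cadm4 counts than WT replicate 1 (42 against 44) on a larger gene-count total (659213 against 645994). The mean of Cadm4 was 64.7 ± 2.35 CPM in the WT mice against 74.7 ± 7.19 CPM in the KO mice (mean ± SD, n = 3 each). The log2 fold change was 0.21 (SE 0.21) with an edgeR adjusted p of 0.987. Cadm3 had 42, 63 and 63 counts in the WT mice and 66, 41 and 45 in the KO mice, with overlapping groups and a log2 fold change of -0.19 (SE 0.22). Cadm1 and Cadm2 were close to level, at 0.0012 (SE 0.35) and -0.022 (SE 0.34), and Cadm1 varied little, from 10 to 16 counts per library.

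Contactins are anchored to the membrane by a lipid and work along axons and at parallel fibre synapses. Cntn1 (chromosome 15, 92051165 to 92341967, plus strand), which joins Cntnap1 and neurofascin at the paranode, had 23, 25 and 36 counts in the WT mice and 29, 20 and 35 in the KO mice. In both genotypes replicate 3 was the highest library, and the log2 fold change was -0.026 (SE 0.28). Cntn2, found on young granule cell axons and near the node, had 10, 15 and 11 counts in the WT mice and 19, 6 and 5 in the KO mice. KO replicate 1 was its highest library and the other KO libraries its lowest, and the log2 fold change of -0.32 (SE 0.44) was between -1.05 and -0.063 when each library was left out. Cntn6, a contactin of parallel fibre synapses, had 8, 3 and 5 counts in the WT mice and 13, 5 and 10 in the KO mice, with overlapping groups (exact two-sided permutation p = 0.2, and 0.8 adjusted).

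The contactin-associated proteins, which flank the node with contactins, were under the filter. Cntnap1 had 8, 5 and 7 counts in the WT mice and 11, 6 and 4 in the KO mice, a near level mean of 9.80 ± 2.21 CPM in the WT mice against 9.75 ± 3.88 CPM in the KO mice (mean ± SD, n = 3 each). Cntnap2, which gathers potassium channels beside the node, had 5, 0 and 0 counts in the WT mice and 4, 0 and 1 in the KO mice, so replicate 1 of each genotype held nearly all of its reads. Cntnap4 had 1 to 4 counts per library.

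Among the cadherins, Pcdh10 (chromosome 3, 45378398 to 45435623, plus strand), a delta protocadherin, had the highest fitted value of the set. It had 72, 56 and 56 counts in the WT mice and 76, 64 and 92 in the KO mice, a log2 fold change of 0.31 (SE 0.22, 95% interval -0.14 to 0.76). KO replicate 3 stood above the others and WT replicate 1 lay above KO replicates 1 and 2 in CPM, so the groups overlapped. The log2 fold change was 0.082 without KO replicate 3 and -0.012 when WT replicate 3 was left out as well. Pcdh17, another delta protocadherin, had 24, 13 and 12 counts in the WT mice and 17, 16 and 15 in the KO mice, with WT replicate 1 apart from the rest and a log2 fold change of -0.066 (SE 0.34). Cdh13, a cadherin anchored to the membrane by a lipid, had 0 counts in every library. Sidekicks and Dscam proteins, which match the layers of synaptic partners in the retina, were barely seen. Sdk1 had 0 to 2 counts, Sdk2 1 to 4 and Dscaml1 1 to 3 per library, while Dscam had 7 counts in WT replicate 1 and 0 or 1 in the other libraries.

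**Figure D3:**
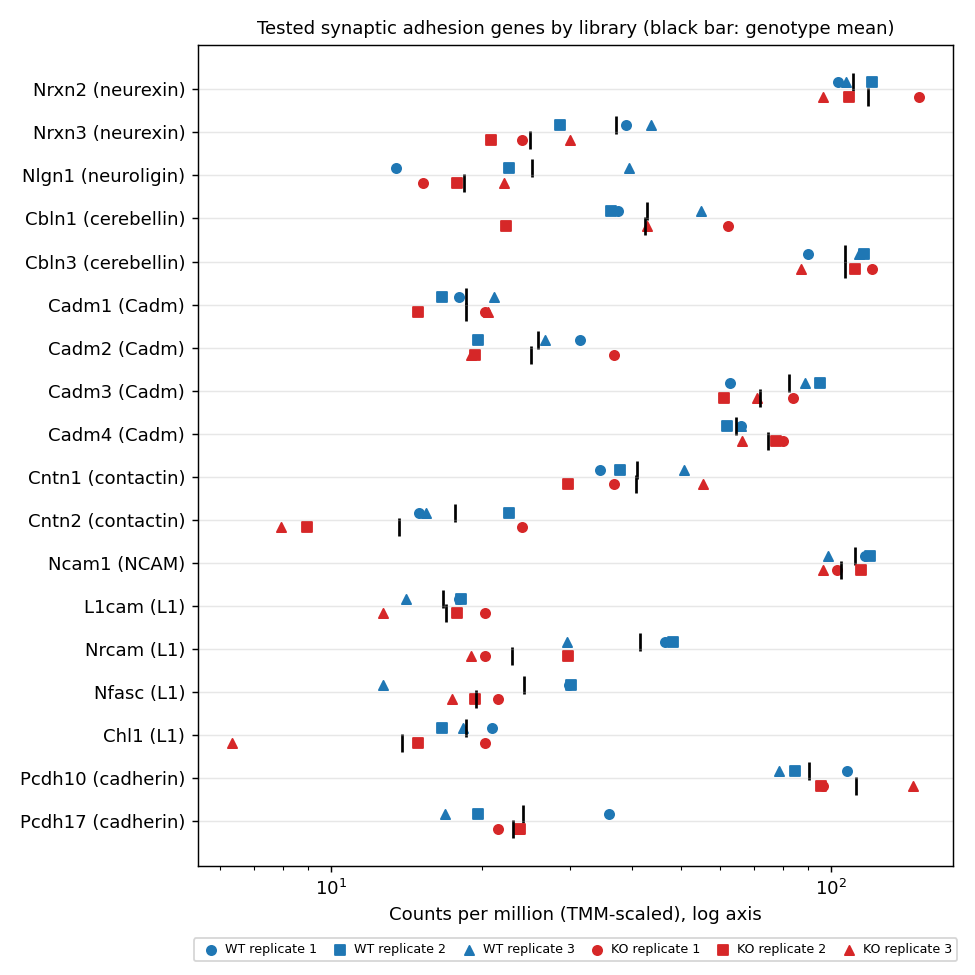
TMM-scaled CPM (log axis) of the 18 tested adhesion genes in each WT (blue) and KO (red) library, with a black bar at each genotype mean. On this scale the groups overlap for 17 of the 18 genes, Cadm4 being the exception.

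Levels between the adhesion genes were compared as mean CPM per kilobase of merged GENCODE exon, since the annotation the authors counted is not given in the sources used here. Cadm4 had the highest such level (32.2 CPM per kb, 28.7 to 37.0 over the 6 libraries), above every library of the next gene, Cbln3 (21.9, from 17.9 to 24.8). Cbln1 followed with 14.1, Ncam1 with 12.5, Cadm3 with 10.6, Nrxn2 with 8.29 and Pcdh10 with 6.39. From Cbln3 down to Sdk1, the last of the 34 genes with a count (0.093 CPM per kb), each gene's range overlapped that of its neighbour in this order. Of the 18 tested adhesion genes 13 lay below the median of tested genes that have a length (9.18 CPM per kb). Within the L1 family the order of levels was Nrcam (2.41 CPM per kb), L1cam (2.29), Nfasc (1.55) and Chl1 (1.32), with overlapping ranges. The 38 genes together held 3962 counts, 0.096% of all gene counts.

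The 3 KO libraries did not move alike. KO replicate 1 was the highest of the 6 libraries for 7 of the 18 tested genes and the lowest for 0, while KO replicate 3 was the lowest for 8 and KO replicate 2 for 5. Among all tested genes KO replicate 1 was the highest for 16.9%, and each library was the lowest for 14.3% to 19.2%. The summed level of the 38 genes was 974 ± 16.5 CPM in the WT mice against 940 ± 98.7 CPM in the KO mice (mean ± SD, n = 3 each), with 1050 CPM in KO replicate 1, 861 in KO replicate 2 and 907 in KO replicate 3. The single KO library with a high sum thus lay above all 3 WT libraries (955 to 986 CPM) and the other KO libraries below them.

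**Figure D4:**
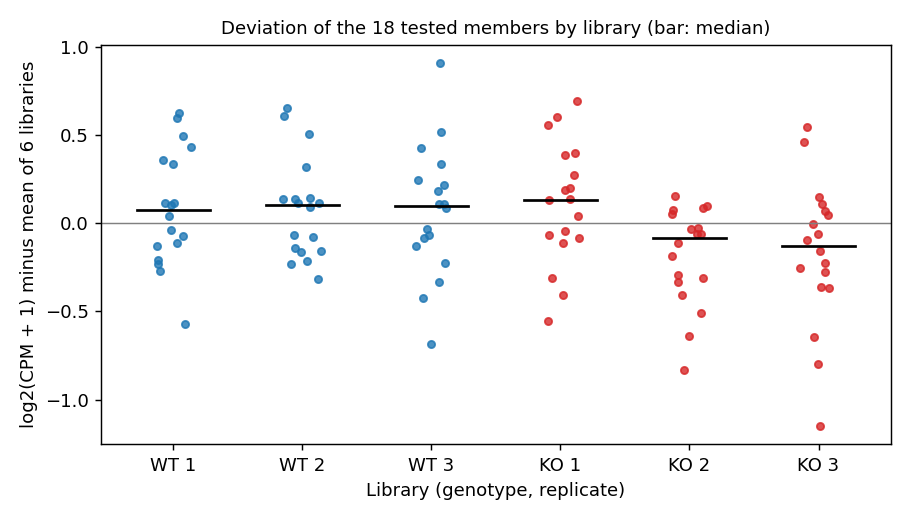
Deviation of each of the 18 tested adhesion genes (points) from its mean over the 6 libraries, on the log2(CPM + 1) scale, by library, with the median as a black bar. The medians are 0.075 to 0.11 in WT, 0.14 in KO replicate 1, -0.084 in KO replicate 2 and -0.13 in KO replicate 3.

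The wider set of 85 related genes held receptors and ligands of synaptic organizers, other adhesion molecules, and the cytoplasmic proteins to which they are anchored. Of the 84 found in the files 32 were tested, and 0 passed the edgeR comparison (5 of 32 at an unadjusted p under 0.05, against 4.62% of all tested genes). Of the 32, 23 were below 0 and 9 above (49.8% of all tested genes were below 0), with a median log2 fold change of -0.24 against 0.0017 for all tested genes. The groups did not overlap for 9 of them (10.7% of all tested genes). Cytoplasmic anchors and scaffolds had 10 of 12 below 0 and a median of -0.36, receptors and ligands 8 of 13 and -0.061, and other adhesion molecules 5 of 7 and -0.22. The lowest p among those below 0 belonged to Ctnnd2, which encodes delta-catenin, a partner of cadherin tails, and Dlg4, which encodes the scaffold PSD-95 that binds neuroligins. Ctnnd2 had 18, 22 and 24 counts in the WT mice and 13, 10 and 8 in the KO mice, and Dlg4 had 59, 48 and 49 in the WT mice and 41, 29 and 28 in the KO mice. In both genes the KO libraries all lay under the lowest WT library, with log2 fold changes of -1.07 (SE 0.32) and -0.71 (SE 0.22) and an edgeR adjusted p of 0.916 each. Above 0 the lowest p belonged to Magi2, a scaffold of neuroligins, at 0.53 (SE 0.29), and Ptprd, a presynaptic receptor phosphatase, at 0.54 (SE 0.36) on 8 or 9 counts per WT library and 12 to 15 per KO library. Purkinje marker sums did not overlap between genotypes either, by the narrow margin given above, and their part in these values was not tested.

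Nrcam and Ncam2 were the 2 adhesion genes of the 38 with an unadjusted p under 0.05, both in the authors' deposited table from DESeq and in the authors' deposited table from edgeR. By the authors' deposited tables that level was reached by 1.86% (DESeq) and 2.81% (edgeR) of the 16540 genes with a count. The authors' deposited DESeq table gave Nrcam a fold of 0.569 in KO over WT (p = 0.0147) and Ncam2 a fold of 0.307 (p = 0.0397). In the authors' deposited edgeR table, which sets WT over KO, the log2 ratio was 0.82 for Nrcam (p = 0.0129) and 1.55 for Ncam2 (p = 0.0346). Cbln1 and Cbln3 had folds of 1.01 and 1.02 in the authors' deposited DESeq table.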

How the data were processed

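RNA of 6 libraries (3 WT, 3 KO) was read from 1 end over 50 bases. TopHat, HTSeq 0.9.1, DESeq and edgeR are the tools, and GRCm38 (mm10) the build, that the submitters' processing notes name. Neither the strand setting nor the annotation is given in the sources used here. Each deposited sample file lists a whole-number count for every gene symbol, and 98.76% to 98.84% of uniquely aligned reads stand in a row for no gene, which was left out, as were the other rows that name no gene (ambiguous reads 0.00416% to 0.00492%). Used for description alone, the authors' deposited DESeq results hold a normalised signal averaged by genotype, its ratio (fold of KO to WT) and a p-value. Their deposited edgeR results hold the log2 of WT to KO, log2 CPM and a p-value.

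The test was edgeR 4.0.16 on R 4.3.3 with these counts (glmQLFit, glmQLFTest, TMM, filterByExpr on genotype at its minimum count of 10, no covariate, Benjamini-Hochberg over all 5320 tested genes). The fit was tested on simulated data drawn from its own means and dispersions, which cannot check the model against these counts. The standard error is the one implied by the F statistic. Genes under the filter were compared by an exact two-sided permutation test of CPM. P-values measure the spread between these 3 libraries a genotype. The limit given for a gene at 0 reflects counting error alone. Alternatives were DESeq2 1.42.0, limma-voom (limma 3.58.1), other normalisation, filters and library sizes, a replicate block, and leaving out libraries. Exon lengths and overlaps come from GENCODE M21.

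The adhesion genes, the related genes and the marker lists were chosen with earlier results of these data known. All 38 genes are accounted for; counts per sample are printed for tested genes with an unadjusted p under 0.05, with groups that do not overlap or with the highest level in their family, for all cerebellin and C1q-like genes, and for further genes chosen after their values were seen. Of the related genes, the lowest p values above and below 0 (2 genes each) decide which are named.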

Additional observations from a re-analysis of the deposited data

Results flagged for a closer look

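Reads assigned to no gene made up 98.8% of the uniquely aligned reads on average over the 6 libraries. They lie outside the counts used here, and the files give only their total, so how many of them come from adhesion genes cannot be seen.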

How the results depend on the processing

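No adhesion gene passed the threshold in any of the 15 alternative settings, the replicate block among them (0 genes, median log2 fold change -0.059, 13 of 18 below 0). Over all genes 6 passed with no filter and 1 when WT replicate 3 and KO replicate 3, the libraries with Y-linked counts, were left out, and 0 to 1 passed leaving out each library (1 without WT replicate 3); the cause was not tested. The median log2 fold change of the tested adhesion genes ran from -0.22 (without KO replicate 1) to -0.011 leaving out each library, and was 0.026 among genes with no opposite-strand overlap. In that setting 5 of 12 were below 0 (41.7%, against 47.5% of all genes), while 8 of the same 12 were in the main fit. With a mean count of 20 or more 7 of 10 were (70%, against 48.7% of all genes). Leaving out each library, the fewest were 10 of 20 without KO replicate 2 (50%, against 51.7% of all genes). The most were 15 of 18 without KO replicate 1 (83.3%, against 51.1%). Equal replicate numbers correlated at 0.143, 0.0795 and 0.122 in their deviations across tested genes, every library most with its own number, but the labels name no pairing, so the numbers were not taken as pairs.

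Of 256 single-gene values under alternatives, 218 kept their sign and 38, in 10 genes, did not. Cbln1 was at 0.016 with DESeq2, 0.0080 with RLE, 0.063 among genes with no overlap, 0.015 with no filter and 0.22 without the libraries with Y-linked counts. Cbln3 was at -0.045 with library sizes from all uniquely aligned reads, -0.00030 with limma-voom, -0.015 with a mean count of 20 or more and -0.0021 with the replicate block. Cadm1 was at -0.051 with those library sizes and -0.0075 with limma-voom, and L1cam at -0.012 with those library sizes. Cntn1 was at 0.010 with DESeq2 and 0.043 among genes with no overlap, Pcdh17 at 0.0084 among genes with no overlap and 0.010 with limma-voom. Without the libraries with Y-linked counts Cadm2 was at 0.15 and Pcdh10 at -0.012. Leaving out each library, Nrxn2 ran from -0.11 to 0.23, Nlgn1 from -0.78 to 0.0086, Cbln1 from -0.41 to 0.29, Cbln3 from -0.12 to 0.12, Cadm1 from -0.076 to 0.13, Cadm2 from -0.44 to 0.13, Cntn1 from -0.30 to 0.15, L1cam from -0.12 to 0.19 and Pcdh17 from -0.28 to 0.32. The 76 mean CPM values moved by less than their SD on plain gene-count totals. A minimum overlap of 1 base gave 13 adhesion genes with an opposite-strand gene, and 200 bases gave 9. The low counts in genes, 4 to 118 per library for a tested adhesion gene, limit what can be seen.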
